A study of Mus musculus with 9 samples.

Results

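The growth hormone and IGF1 axis of the liver was followed through 10 genes, which are Ghr, Stat5a, Stat5b, Igf1, Igfals, Igfbp2, Igfbp3, Socs2, Socs3 and Cish. They were chosen by name, and every probe set of the array that carries 1 of these symbols was taken. This gave 25 of the 45037 probe sets tested, and 10 of the 18193 genes with a probe set of their own. A probe set is the group of short probes with which the array reads 1 transcript. Where a gene had several probe sets, the one that was brightest on average was the main reading. Liver RNA came from female C57BL/6J mice in 3 groups of 3. Tylosin mice had 0.333 mg/mL of tylosin, a macrolide, in the drinking water at a target of 50 mg/kg per day. Amoxicillin mice had 0.167 mg/mL of amoxicillin, a beta-lactam, at a target of 25 mg/kg per day. Both antibiotics were given in 3 pulses, on days 10 to 15, 28 to 31 and 37 to 40 of life, and control mice had none. The first pulse fell before weaning, and the paper describes the earliest dose as reaching the pups in the mother's milk. The targets rest on an estimated water intake. All 3 groups were later fed a high-fat chow. Livers were taken at 22 weeks by the study's design text and at 24 weeks by the sample labels, long after the last pulse. Litters were kept within a treatment and the litter of each mouse is not given, so litter and treatment cannot be told apart, and the p-values below measure the spread between these 9 livers.

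Growth hormone from the pituitary binds its receptor on hepatocytes, and the kinase JAK2 bound to the receptor phosphorylates the transcription factors STAT5A and STAT5B. STAT5B is the main form in hepatocytes and drives Igf1, whose product circulates in a complex with IGFBP3 and the acid-labile subunit encoded by Igfals. The same signal induces Cish, Socs2 and Socs3, inhibitors that damp the receptor and its kinase. Socs3 is also a target of STAT3 downstream of interleukin 6. In rodents the pulsatile or steady pattern of growth hormone sets the sex bias of many liver genes through STAT5B. Hepatic Igf1 is a main source of the IGF1 in blood and a regulator of body and bone growth, and the comparison of livers after antibiotic pulses asks whether this axis still differed in adult animals.

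The arrays were alike, with correlations between 0.988 and 0.996 over all probe sets, and the 9 hepatocyte markers gave a summed level of 17.1 on the log2 scale on every array. Markers of other cell types differed between arrays. Reg3b, a gut mucosal lectin, read 7.75, 9.72 and 3.01 on the tylosin arrays. It read 10.18, 2.67 and 2.70 on the amoxicillin arrays, against 3.07 to 3.15 in control. The 8 gut mucosal markers, Reg3b included, summed to 11.22 in tylosin replicate 1, within control at 11.20 to 11.51. On that array Zg16, another of the 8, was 6.07, above control at 5.42 to 5.67. Muc2, also of the 8, was 3.53, against 3.39 to 3.65 in control. Reg3g, Vil1 and Lgals4 also lay within control there, and Fabp2 and Cdx2 lay below it. The sum was 11.96 in amoxicillin replicate 1 and 11.87 in tylosin replicate 2. It also passed control in amoxicillin replicate 3, at 11.73, and tylosin replicate 3, at 11.54, where Reg3b was not raised. The sum is taken over unlogged values, and Fabp2 was the brightest of the 8 on every array. Fabp2 read 11.62 and 11.415 on these arrays, against 11.04 to 11.40 in control. Reg3g, Zg16, Vil1, Cdx2 and Muc2 did not exceed control there. Lgals4 was 7.25 in amoxicillin replicate 3, against 6.91 to 7.22 in control. The 6 smooth muscle markers summed to 9.48 in tylosin replicate 2 and to 9.28 in amoxicillin replicate 1, against 7.45 to 7.72 in control. The 9 macrophage markers summed to 13.36 in tylosin replicate 3, above the other 8 arrays at 12.40 to 12.99. In that liver Marco, a macrophage scavenger receptor, was at 10.95, against 5.81 to 8.26 in control, and the Kupffer cell marker Clec4f was at 7.50, against 9.20 to 9.59 in control. The 3′ minus 5′ signal of Actb, a sign of RNA quality, was 1.21 to 1.73 with tylosin and 1.39 to 1.57 with amoxicillin, against 1.29 to 1.40 in control. In whole liver RNA, fewer cells of a type and less RNA per cell cannot be told apart.

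None of the 10 genes was called different in any comparison at its brightest probe set. A call required a limma p under 0.01 without adjustment together with a log2 fold change beyond 0.5 in either direction. At these thresholds 1.45% of 18193 genes were called for tylosin against control, 1.28% for amoxicillin against control and 0.11% for tylosin against amoxicillin. Over all 25 probe sets of the axis, 1 was called, a Socs3 probe set lower with amoxicillin than in control, and none was called with tylosin or between the antibiotics. Over all 45037 probe sets the called shares were 1.42% for tylosin against control, 1.35% for amoxicillin against control and 0.0933% for tylosin against amoxicillin. After Benjamini-Hochberg adjustment over all probe sets, 0 of 45037 passed 0.05 in limma in each comparison, while 6722, 6657 and 1335 had an unadjusted p under 0.05 in the same order. At that looser level stood Igfals and Stat5a for tylosin against control, Socs3 for amoxicillin against control, and Igfals and Stat5b for tylosin against amoxicillin. The median log2 fold change of the 10 genes was −0.06 with tylosin against control, 0.02 with amoxicillin against control and −0.06 with tylosin against amoxicillin. The corresponding medians over all genes were −0.01, −0.03 and 0.01. Both antibiotic groups were set against the same 3 control arrays, so the comparisons are not independent of each other. The standard errors of the 10 genes ran between 0.10 and 0.24, so that a 95% interval reached 0.23 to 0.53 to either side of a log2 fold change.

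Complete separation of the groups was counted beside its share over all genes. With amoxicillin, Ghr and Stat5b lay above all 3 control arrays and Socs3 and Cish lay below them, 4 of 10 genes, where 21% of all genes had groups that did not overlap. For tylosin against control 0 of 10 did so, where the share over all genes was 17.4%. For tylosin against amoxicillin Stat5b alone did so, below, where the share was 6.13%.

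**Figure D1:**
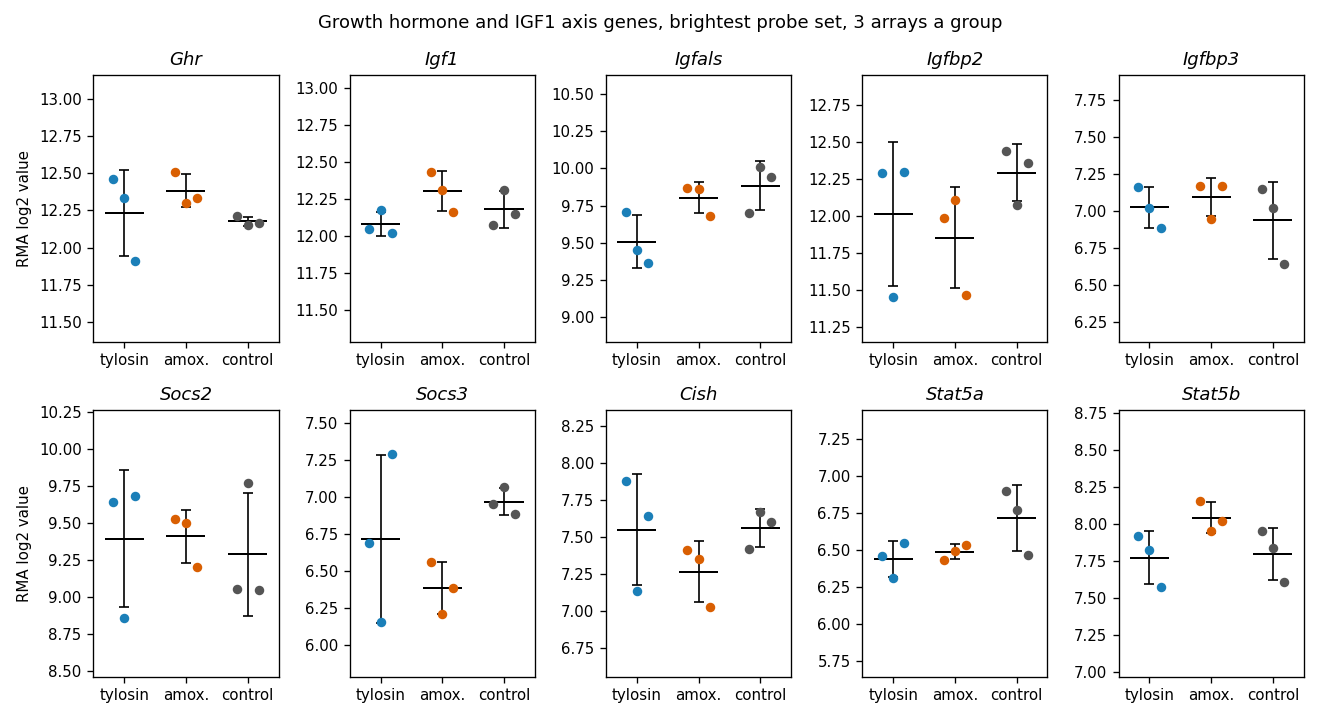
RMA log2 values (y axis, a span of equal height in each panel) of the brightest probe set of each of the 10 genes in tylosin, amoxicillin and control livers. Points are the 3 arrays of a group, the line is their mean and the bar is 1 SD. Socs3 with amoxicillin lay at 6.21 to 6.56, below control at 6.89 to 7.06, while the tylosin points spread over 6.16 to 7.29.

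Ghr, which encodes the growth hormone receptor, differed little between the groups. Its brightest probe set read 12.46, 12.34 and 11.91 with tylosin and 12.51, 12.30 and 12.33 with amoxicillin, against 12.21, 12.15 and 12.17 in control. Every amoxicillin array lay above every control array, and tylosin replicate 3 was the lowest of the 9. Ghr differed from control by 0.06 on the log2 scale with tylosin (95% interval −0.24 to 0.35) and 0.21 with amoxicillin (−0.09 to 0.50), with limma adjusted p of 0.860 and 0.484. Tylosin against amoxicillin gave −0.15 (−0.44 to 0.15). The other 2 Ghr probe sets gave 0.10 and −0.07 with tylosin and 0.13 and 0.04 with amoxicillin, and every interval held 0.

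Stat5a and Stat5b encode the signal transducers. Stat5b read 7.92, 7.82 and 7.57 with tylosin and 8.15, 7.95 and 8.02 with amoxicillin, against 7.95, 7.84 and 7.61 in control. The tylosin and control arrays overlapped, while all 3 amoxicillin arrays lay above the tylosin arrays and, narrowly at the nearest pair, above the control arrays. The log2 fold change of Stat5b was −0.03 with tylosin (−0.29 to 0.24) and 0.25 with amoxicillin (−0.02 to 0.51), and −0.27 for tylosin against amoxicillin (−0.54 to −0.0012). The limma adjusted p was 0.938, 0.374 and 1. A dimmer Stat5b probe set, with means of 5.04, 5.15 and 5.11 in tylosin, amoxicillin and control, gave −0.07 with tylosin and 0.04 with amoxicillin. Stat5a read 6.46, 6.31 and 6.55 with tylosin and 6.43, 6.49 and 6.54 with amoxicillin, against 6.90, 6.77 and 6.47 in control. Control replicate 3 lay within the range of the antibiotic arrays and the other 2 control arrays above it. Stat5a differed from control by −0.27 with tylosin (−0.54 to −0.01, limma adjusted p = 0.318) and −0.23 with amoxicillin (−0.49 to 0.04, adjusted p = 0.391). The second Stat5a probe set averaged 2.91, 3.05 and 2.88 in tylosin, amoxicillin and control, near the floor of the array.

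**Figure D2:**
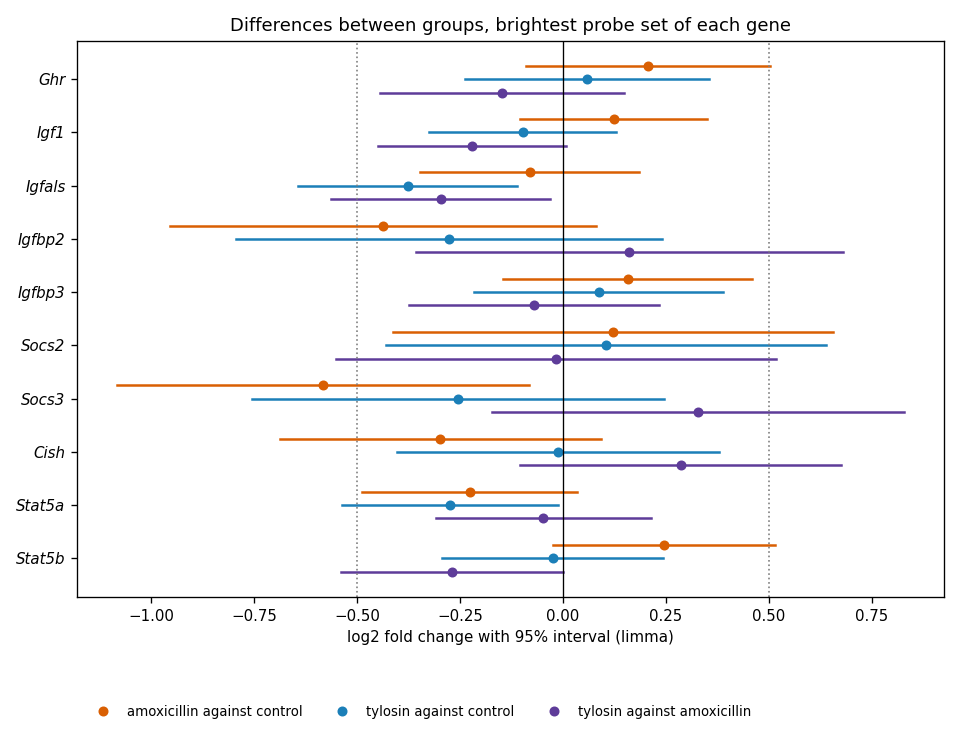
Log2 fold change (x axis) of the brightest probe set of each of the 10 genes in the 3 comparisons. Points are limma estimates, horizontal lines are 95% intervals and dotted lines mark the 0.5 required of a call. The intervals of Igfals and Stat5a with tylosin, of Socs3 with amoxicillin, and of Igfals and Stat5b for tylosin against amoxicillin lay below 0, and no gene passed both thresholds.

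Igf1, the hepatic growth factor, was read by 4 probe sets that all lay over 10 on the log2 scale. At the brightest it read 12.05, 12.17 and 12.02 with tylosin and 12.43, 12.31 and 12.16 with amoxicillin, against 12.08, 12.31 and 12.15 in control. By mean, tylosin was lowest, amoxicillin highest and control between them, with overlap of neighbouring groups. Igf1 differed from control by −0.10 with tylosin (−0.33 to 0.13) and 0.12 with amoxicillin (−0.11 to 0.35), both intervals at this probe set ending short of 0.5. Tylosin against amoxicillin gave −0.22 (−0.45 to 0.01, limma p of 0.0564, adjusted p = 1).

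The other 3 Igf1 probe sets gave a difference of the same sign between the antibiotics. Probe set 1434413_at read 11.33, 11.55 and 11.39 with tylosin and 11.78, 11.74 and 11.57 with amoxicillin, against 11.70, 11.72 and 11.52 in control. All tylosin arrays lay below all amoxicillin arrays, and the difference of −0.27 (−0.50 to −0.05) had a limma p of 0.0221 and an adjusted p of 1. Probe set 1437401_at read 11.36, 11.60 and 11.46 with tylosin and 11.85, 11.72 and 11.70 with amoxicillin, again without overlap, and gave −0.29 (−0.56 to −0.02). Probe set 1419519_at read 10.70, 11.02 and 10.50 with tylosin and 11.22, 11.12 and 10.98 with amoxicillin, with 1 tylosin array inside the amoxicillin range, and gave −0.37 (−0.71 to −0.02). The 4 probe sets read 1 gene in the same RNA and are not 4 replicates. Against control, tylosin gave −0.22 at 1434413_at (−0.45 to 0.00077), −0.12 at 1437401_at and −0.03 at 1419519_at, and amoxicillin gave 0.05, 0.16 and 0.33 at these 3 probe sets, the last with an interval of −0.02 to 0.68 that holds 0.5. No Igf1 probe set was called. Leaving out any 1 array kept the difference between the antibiotics at −0.34 to −0.23 for 1434413_at and at −0.35 to −0.23 for 1437401_at.

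**Figure D3:**
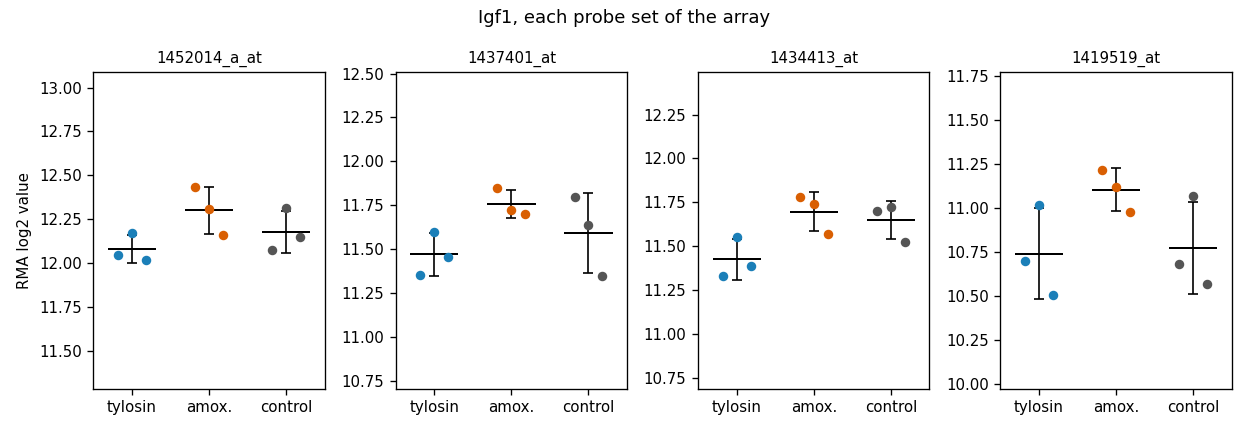
RMA log2 values (y axis) of the 4 Igf1 probe sets in tylosin, amoxicillin and control livers. Points are arrays, lines are means and bars are 1 SD (3 arrays a group). At 1437401_at and 1434413_at every tylosin point lay below every amoxicillin point, and the control points overlapped at least 1 of the antibiotic groups at each probe set.

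Igfals, which encodes the subunit that holds IGF1 and its binding protein in the long-lived serum complex, had the smallest p of the 10 genes with tylosin. It read 9.71, 9.45 and 9.36 with tylosin and 9.87, 9.86 and 9.68 with amoxicillin, against 9.70, 10.01 and 9.94 in control. The 2 lowest arrays of the 9 were tylosin replicates 3 and 2, and tylosin replicate 1 lay just above the lowest control array, so the groups overlapped. The log2 fold change with tylosin was −0.38 ± 0.12 (SE; 95% interval −0.64 to −0.11), with a limma p of 0.00992 and an adjusted p of 0.231, and the size of the change fell short of a call. Leaving out any 1 array gave −0.48 to −0.31. Amoxicillin gave −0.08 (−0.35 to 0.19), and tylosin against amoxicillin −0.30 (−0.56 to −0.03, limma p of 0.0322, adjusted p = 1).

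Neither binding protein, Igfbp3 or Igfbp2, was called, and every interval against control held 0, with that of Igfbp2 with amoxicillin reaching −0.96. Igfbp3, the partner of IGF1 and the acid-labile subunit in serum, is made in the liver largely outside hepatocytes. It read 7.16, 7.02 and 6.88 with tylosin and 7.17, 6.95 and 7.17 with amoxicillin, against 7.15, 7.02 and 6.65 in control, and the 3 groups overlapped. Igfbp3 differed from control by 0.09 with tylosin (−0.22 to 0.39) and 0.16 with amoxicillin (−0.15 to 0.46). The second Igfbp3 probe set gave −0.10 and 0.08, of opposite sign to the first for tylosin.

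Igfbp2, a binding protein of hepatocytes that growth hormone lowers, varied between livers. It read 12.29, 11.45 and 12.30 with tylosin and 11.99, 12.11 and 11.47 with amoxicillin, against 12.44, 12.07 and 12.36 in control. Tylosin replicate 2 and amoxicillin replicate 3 were the low arrays, and the other 7 lay between 11.99 and 12.44. Igfbp2 differed from control by −0.28 with tylosin (−0.79 to 0.24) and −0.44 with amoxicillin (−0.96 to 0.08), with limma adjusted p of 0.596 and 0.403. Without tylosin replicate 2 the tylosin value was 0.0031, and without amoxicillin replicate 3 the amoxicillin value was −0.24.

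Among the feedback inhibitors Socs3 was lower with amoxicillin at all 3 of its probe sets. At the brightest, 1455899_x_at, it read 6.69, 6.16 and 7.29 with tylosin and 6.56, 6.21 and 6.39 with amoxicillin, against 6.95, 7.06 and 6.89 in control. The amoxicillin arrays lay together below control, whereas the tylosin arrays held both the lowest and the highest of the 9 values. The log2 fold change with amoxicillin was −0.58 ± 0.23 (SE; 95% interval −1.08 to −0.08), 0.667-fold, with a limma p of 0.0265 and an adjusted p of 0.295. At 1416576_at Socs3 read 5.70, 5.51 and 6.15 with tylosin and 5.84, 5.60 and 5.41 with amoxicillin, against 6.01, 6.03 and 6.53 in control, and amoxicillin gave −0.57 (−0.99 to −0.15, limma p of 0.0124, adjusted p = 0.255). At 1456212_x_at it read 5.53, 5.30 and 5.98 with tylosin and 5.49, 4.96 and 5.25 with amoxicillin, against 5.88, 6.15 and 5.73 in control. This probe set was the 1 of 25 that was called, at −0.69 ± 0.19 (SE), 0.621-fold, with a limma p of 0.00409 and an adjusted p of 0.221. The call was lost when control replicate 1 or 2 or amoxicillin replicate 2 or 3 was left out, with values of −0.71, −0.57, −0.55 and −0.70. At all 3 probe sets each amoxicillin array lay below each control array. The signal was dim, between 4.96 and 7.29 over all arrays and probe sets, and the suffix _x_at marks probe sets whose probes can also bind other transcripts.

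With tylosin the Socs3 result at the brightest probe set rested on single arrays. There Socs3 differed from control by −0.25 (−0.76 to 0.25). It was 0.02 when tylosin replicate 2 was left out and −0.54, which met both thresholds of a call, when replicate 3 was. Tylosin gave −0.40 (−0.82 to 0.02) at 1416576_at and −0.32 (−0.73 to 0.10) at 1456212_x_at. Leaving out any 1 array kept these values at −0.58 to −0.23 and −0.50 to −0.16. Tylosin replicate 3 had the highest Socs3 at the brightest probe set and the highest summed macrophage markers. Clec4f and Vsig4 of that list were, however, at their lowest there. That array also had Saa3, an acute phase gene, at 9.79, against 6.61 to 7.98 in control. The part of these cells or of an acute phase in the Socs3 value was not tested. At the brightest probe set tylosin against amoxicillin gave 0.33 (−0.17 to 0.83). This was 0.61 or 0.04 when tylosin replicate 2 or 3 was left out.

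**Figure D4:**
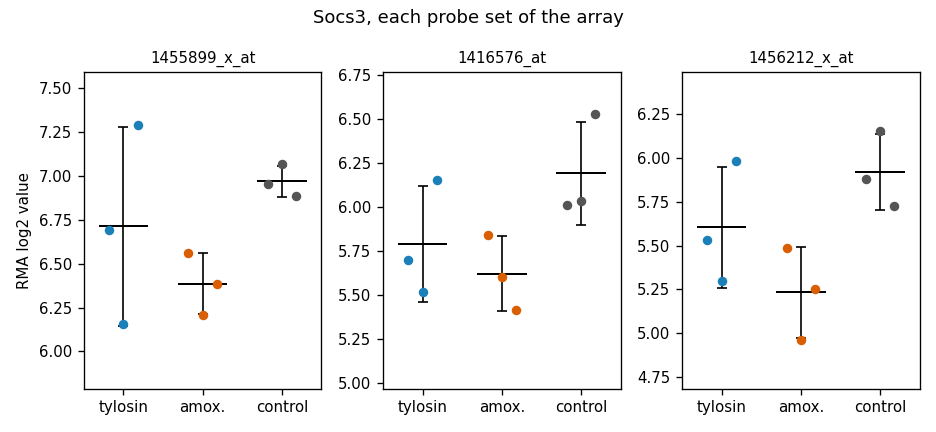
RMA log2 values (y axis) of the 3 Socs3 probe sets in tylosin, amoxicillin and control livers. Points are arrays, lines are means and bars are 1 SD (3 arrays a group). At each probe set the amoxicillin points lay below the control points, and the highest tylosin point, replicate 3, reached or passed the control range.

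Cish, which encodes the inhibitor that competes with STAT5 at the receptor, read 7.87, 7.13 and 7.64 with tylosin and 7.41, 7.35 and 7.03 with amoxicillin, against 7.42, 7.67 and 7.60 in control. The amoxicillin arrays all lay below control, narrowly at the nearest pair, and tylosin held the highest array and 1 of the lowest. Cish differed from control by −0.01 with tylosin (−0.40 to 0.38) and −0.30 with amoxicillin (−0.69 to 0.09), with limma adjusted p of 0.981 and 0.446. Tylosin against amoxicillin gave 0.29 (−0.10 to 0.68).

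Socs2, a growth hormone induced inhibitor whose loss causes gigantism in mice, read 9.64, 8.86 and 9.68 with tylosin and 9.53, 9.50 and 9.21 with amoxicillin, against 9.06, 9.77 and 9.05 in control. High and low livers stood side by side in the tylosin and control groups, and the spread between replicates was wider than either difference from control, 0.10 with tylosin (−0.43 to 0.64) and 0.12 with amoxicillin (−0.41 to 0.65). Differences up to the size of a call lay within the intervals. Of its 6 probe sets, the second gave 0.01 and 0.06, and the other 4 averaged under 5 in every group and were too dim to carry a reading.

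The STAT5 palindrome TTCNNNGAA, which is the same on both strands, was searched for in windows around the transcription starts, from 250 bases before to 50 bases from the start. RefSeq windows on GRCm38.p6 matched 9 of the 10 genes, all but Socs2, with 15 windows. The motif was in 4 of the 15, of Cish, Socs3 and Igfals, and in 8.3% of all 32851 windows. By gene it was in 3 of 9, and in 9.55% of all 27025 genes with a window. The stretches below show these matches, and a link between the motif and the differences between groups was not tested. Capitals mark the motif.
Cish, chr9:107296639-107296687, plus strand: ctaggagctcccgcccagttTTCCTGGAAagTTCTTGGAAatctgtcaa
Socs3, chr11:117969492-117969540, minus strand: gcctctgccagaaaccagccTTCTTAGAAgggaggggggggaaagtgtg
Igfals, upstream window, chr17:24877594-24877636, plus strand: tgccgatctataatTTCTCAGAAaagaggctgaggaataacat
Igfals, downstream window, chr17:24878153-24878201, plus strand: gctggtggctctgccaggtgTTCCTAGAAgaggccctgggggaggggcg
The Cish matches lie at bases 1 to 9 and 12 to 20 from the annotated start and do not overlap. A pair of matches in 1 window was found in 0.457% of all windows. The Socs3 match lies 154 to 146 bases before its start, and those of Igfals 236 to 228 and 58 to 50 bases before the starts of their windows. A match in these letters is a description of the sequence and not evidence of binding.

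Across the 9 arrays the 10 genes formed 45 pairs, and none of the pairwise correlations passed 0.05 after adjustment over the 45. The smallest adjusted p was 0.166, and 6 pairs had an unadjusted p under 0.05 by a two-sided exact permutation test. The strongest was Igfbp3 with Stat5b, with Pearson's r = 0.817 (exact permutation p = 0.00506) and Spearman's rho = 0.767 (exact permutation p = 0.0214). It was 0.752 without the 2 arrays farthest in Igfbp3 and 0.909 within groups. Ghr and Stat5b gave r = 0.816 (exact permutation p = 0.0074, adjusted 0.166) and rho = 0.650 (exact permutation p = 0.0666), with r at 0.497 without the 2 farthest arrays. Igfbp2 and Cish gave r = 0.790 (exact permutation p = 0.0118, adjusted 0.176) and rho = 0.567, which dropped to r = 0.245 without the 2 farthest arrays, so that relation rested on them. Socs3 was correlated with Ghr at −0.702, with Igfbp2 at 0.694 and with Cish at 0.671, each with an adjusted p of 0.350 or more. The values share the normalization of the arrays and the RNA of the same 9 livers.

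Among 7523 genes with a mean over 6, those most like Igf1 across the 9 arrays by Pearson's r were Cdh1 (0.90), Cpn2 (0.89), Homer2 (0.88), Ugt2b1 (0.85) and Slco1a1 (0.85). Those most like Socs2 were Ppig (0.94), Xaf1 (0.92), Dnmt3a (0.90), Unc50 (0.88) and Nmnat1 (0.87). These are the highest of many correlations over 9 arrays and are given as a description.

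The wider pathway was read from 6 lists of 108 genes, 93 of them with a probe set of their own, and the other 15 were not analysed here. Of 21 measured genes of growth hormone receptor signalling and its brakes, 0 were called in any comparison. Jak2, the receptor's kinase, gave 0.18 with tylosin (−0.01 to 0.37) and 0.11 with amoxicillin (−0.08 to 0.29). Bcl6, a repressor that opposes STAT5 at liver targets, read 5.76, 5.78 and 5.15 with tylosin and 6.01, 5.07 and 5.34 with amoxicillin, against 5.05, 4.70 and 5.05 in control. Bcl6 was dim, at a mean of 5.32. Its arrays did not overlap control in either group, as was so for 17.4% of all genes with tylosin and 21% with amoxicillin. The log2 fold change of Bcl6 was 0.63 with tylosin (0.10 to 1.15, limma adjusted p = 0.278) and 0.54 with amoxicillin (0.02 to 1.07, adjusted p = 0.329). The amoxicillin value was 0.27 without amoxicillin replicate 1. Socs4, an inhibitor of the same family, gave 0.49 with amoxicillin (limma p of 0.00812, adjusted p = 0.246), just short of the size of a call. With tylosin Socs4 gave 0.42 (0.08 to 0.75, limma adjusted p = 0.265). Irs2, an insulin and IGF1 receptor substrate, gave −0.77 with tylosin (−1.41 to −0.12, limma adjusted p = 0.280), with overlap of the groups.

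Of 14 measured IGF ligands, receptors and binding proteins outside the 10 genes, 0 were called in any comparison, and 6 of the 14 had a mean over 6. Igf1r, the IGF1 receptor, which hepatocytes hold at a low level, read 5.17, 5.29 and 5.06 with tylosin and 5.30, 4.96 and 5.06 with amoxicillin, against 4.97, 4.91 and 4.68 in control, and gave 0.32 with tylosin (0.05 to 0.58, limma adjusted p = 0.274) and 0.25 with amoxicillin (−0.01 to 0.52). Igfbp1, the insulin-repressed binding protein, gave −0.02 with tylosin (−0.59 to 0.55) and 0.06 with amoxicillin (−0.51 to 0.63). Igfbp4, an inhibitory binding protein, gave 0.12 and 0.15. Igfbp5 gave 0.55 with tylosin and 0.49 with amoxicillin, with limma adjusted p of 0.309 and 0.355, and its highest array, at 7.73, was tylosin replicate 2, which also had the highest smooth muscle markers. Without that array Igfbp5 gave 0.23 with tylosin, and the part of those cells in its value was not tested. Igf2bp1, an RNA-binding protein of the fetal liver, was dim and gave −0.43 with tylosin and −0.46 with amoxicillin, each with all arrays below control and with limma adjusted p of 0.190 and 0.203. Over all genes, 17.4% and 21% had groups that did not overlap, in the same order.

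Genes that growth hormone and STAT5 make higher in male liver were a list of 18, of which 13 were measured, 8 of them with a mean over 6. Cyp4a12a, Ugt2b38, Hsd3b5, Cyp2u1 and Susd4 were dimmer, and all of these but Cyp2u1 had a negative value with tylosin against control. None of the 13 was called in any comparison. The log2 fold change was negative in 12 of 13 with tylosin against control (median −0.22), 6 of 13 with amoxicillin against control (median 0.13) and 11 of 13 for tylosin against amoxicillin (median −0.43). The medians of all genes were −0.01, −0.03 and 0.01. Without tylosin replicate 3 the tylosin medians were 0.01 against control and −0.12 against amoxicillin, and without amoxicillin replicate 1 tylosin against amoxicillin gave −0.20. Without control replicate 1 the amoxicillin median was −0.09. Slco1a1, an organic anion transporter of hepatocytes, had the largest log2 fold change of the list with tylosin. It read 5.97, 6.93 and 4.37 with tylosin and 8.42, 8.82 and 6.10 with amoxicillin, against 6.61, 8.04 and 7.69 in control. Tylosin replicate 3 was the lowest array, and amoxicillin replicate 3 lay among the tylosin values. The log2 fold change was −1.69 with tylosin against control (−3.35 to −0.03, limma adjusted p = 0.327) and −2.02 for tylosin against amoxicillin (−3.68 to −0.36, limma p of 0.0216, adjusted p = 1). Without tylosin replicate 3 the value against control was −0.99. Amoxicillin gave 0.33 (−1.33 to 1.99). Elovl3, a fatty acid elongase, gave −1.33 with tylosin (−2.39 to −0.26, limma adjusted p = 0.265). It gave −0.83 without tylosin replicate 3, its lowest array and the one with the highest summed macrophage markers. Hsd3b5, dim at a mean of 3.87, and Egfr gave 0.54 and 0.50 with amoxicillin, and for both amoxicillin replicate 1 was the highest of the 9 arrays. Without it they gave 0.012 and 0.19.

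Of 20 genes listed as higher in female liver, 14 were measured. Against control the log2 fold change was negative in 8 of 14 with tylosin (median −0.08) and 5 of 14 with amoxicillin (median 0.06). For tylosin against amoxicillin 9 of 14 were negative (median −0.15). With tylosin replicate 3 left out, the tylosin medians were 0.13 against control and −0.07 against amoxicillin. Prom1 was called higher with amoxicillin, at 1.01 (limma p of 0.0073, adjusted p = 0.244), and no other call was made in any comparison. Prom1 is also a marker of bile duct and progenitor cells. It read 4.51, 4.27 and 3.71 with tylosin and 5.56, 4.26 and 4.51 with amoxicillin, against 3.996, 3.58 and 3.73 in control. Prom1 was thus dim, under 6 on every array. The filter that keeps probe sets over 6 on at least 3 arrays leaves it out. Amoxicillin replicate 1, the highest, also had the highest summed cholangiocyte markers, at 7.85 against 6.29 to 6.47 in control. That sum rested on Epcam at 7.10 and Krt19 at 5.64, while Krt7 and Sox9 did not exceed control. The gut mucosal genes Reg3b, at 10.18, and Muc2, at 6.14, were also high on that array, against 3.07 to 3.15 and 3.39 to 3.65 in control. Without that array Prom1 gave 0.62 and was not called. The part of bile duct or gut cells in its value was not tested. Abcd2, a peroxisomal transporter, gave 0.71 with amoxicillin, with control replicate 1 at 6.99 and the other 8 arrays between 8.34 and 8.84, and 0.20 without that control array. Cyp3a16 and Cyp3a44, cytochromes P450, gave −0.81 and −0.66 with tylosin, with limma adjusted p of 0.344 and 0.311, and Cyp3a44 gave −0.78 for tylosin against amoxicillin (limma p of 0.0176, adjusted p = 1). Both were lowest in tylosin replicate 3. Without that array Cyp3a16 gave −0.53 against control, and Cyp3a44 gave −0.29 against control and −0.41 against amoxicillin. Sult3a1, Lifr and Cyp7b1, the last from the male list, were picked after their values were seen. They gave −1.13, −0.61 and −0.57 for tylosin against amoxicillin, with limma p of 0.0217, 0.0173 and 0.0236 and an adjusted p of 1. Sult3a1 was at 8.77 in tylosin replicate 3 and at 10.35 to 11.42 on the other 8 arrays, and without that array it gave −0.51. Cyp7b1 gave −0.33 without tylosin replicate 3, and Lifr gave −0.40 without amoxicillin replicate 1.

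**Figure D5:**
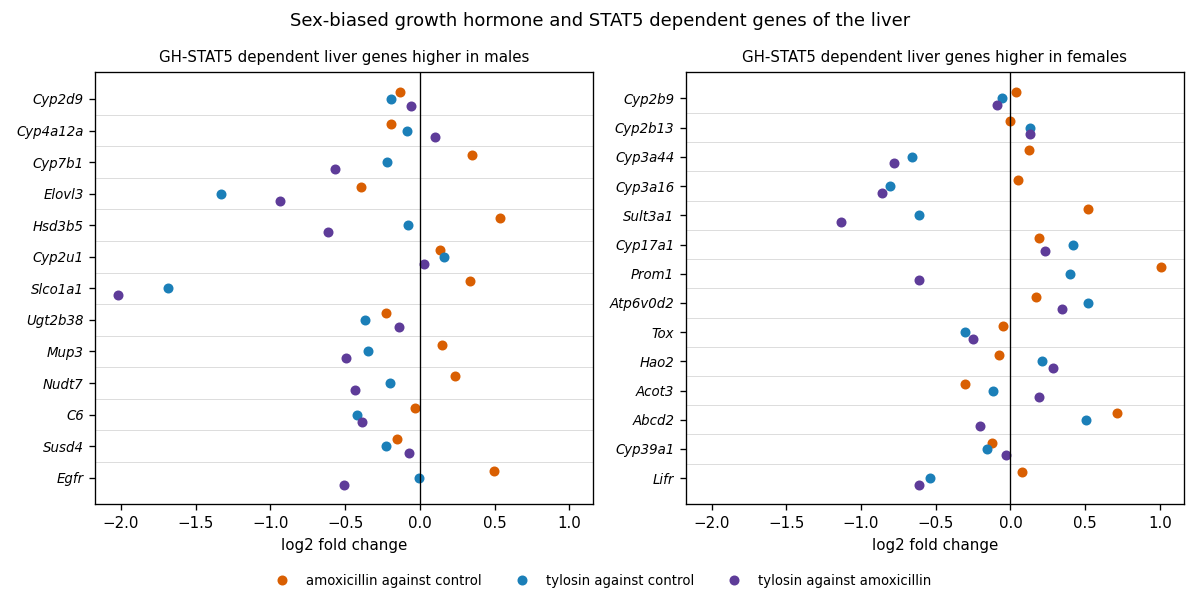
Log2 fold change (x axis) of growth hormone and STAT5 dependent genes that are higher in male liver (left, 13 genes) and in female liver (right, 14 genes), at the brightest probe set. Points are limma estimates of the 3 comparisons. Tylosin against amoxicillin was negative for 11 of the 13 male-biased genes, with Slco1a1 at −2.02, and for 9 of the 14 female-biased genes. A mean over 6 was reached by 8 of the 13 and by 12 of the 14.

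Of 20 interleukin 6 and STAT3 acute phase genes, all were measured and 0 were called. Saa1 and Saa2, serum amyloids, gave −1.07 and −1.06 with amoxicillin. Saa1 read 8.42, 8.79 and 11.01 with tylosin and 7.77, 9.06 and 8.25 with amoxicillin, against 8.22, 8.53 and 11.55 in control, so that 1 high liver stood in each of the tylosin and control groups, and without control replicate 3 Saa1 gave −0.013 and Saa2 0.017. Socs3 in that control liver was 6.89 at the brightest probe set, the lowest of the control arrays, and 6.53 at 1416576_at, the highest. Saa3 gave 0.83 with tylosin and −0.10 without tylosin replicate 3, and Cebpd, a transcription factor of the acute phase, gave 0.67 with tylosin (0.03 to 1.32, limma adjusted p = 0.320) and 0.28 without control replicate 2. Of 11 measured nutritional and stress regulators of hepatic growth hormone action, 0 were called. Fgf21, a fasting hormone that inhibits STAT5 signalling in mouse liver, read 7.09, 7.43 and 8.68 with tylosin and 6.34, 7.20 and 7.69 with amoxicillin, against 7.43, 7.71 and 7.43 in control, and gave −0.45 with amoxicillin (−1.33 to 0.43) and −0.078 without amoxicillin replicate 1. Asns, a target of the amino acid response, gave −0.45 with amoxicillin. Foxo1, a factor repressed by insulin, gave 0.30 with tylosin, and Ppara, a receptor of the fasting response, gave −0.27.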

How the data were processed

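Liver RNA of 9 mice, 3 a group, was labelled with a 3′ in vitro transcription kit and hybridized to Affymetrix Mouse Genome arrays, 1 array a liver. The authors normalized the arrays by RMA in the affy package, versions not given in the sources used here, and the deposited values are log2 expression. Scanner intensities were not used. Of 45101 probe sets, 64 controls of the manufacturer were left out. In the array's annotation 34945 named probe sets carry 1 symbol, 932 several and 9160 were unnamed. Levels of different probe sets were not compared with a test.

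One limma 3.58.1 fit in R 4.3.3 covered all 9 arrays, with the study's call thresholds, two-sided moderated tests of 3 comparisons and Benjamini-Hochberg adjustment over 45037 probe sets. It was tested on simulated data. Correlations used exact permutation over all pairings of the 9 arrays, with ranks for Spearman's rho from scipy. The 10 genes and the lists were chosen with earlier results of these data known. From each list the called genes and the 2 with the largest absolute log2 fold change in each antibiotic comparison were named, with Jak2, Igf1r, Igfbp1 and Igfbp4 always. Likeness to Igf1 and Socs2 was ranked over genes with a mean over 6. Alternatives were the adjusted threshold, a filter that keeps probe sets over 6 on at least 3 arrays, scaling by array medians or quantiles, weights for arrays, another variance model (trended, robust), separate fits of each pair of groups, the mean of all probe sets of a gene, a replicate block, and leaving out each array or amoxicillin replicate 1 with tylosin replicate 2. Promoter windows came from RefSeq on GRCm38.p6. The number of arrays limits the precision.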

Additional observations from a re-analysis of the deposited data

How the results depend on the processing

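Leaving out 1 array moved the median log2 fold change of the 10 genes between −0.14 and 0.0052 for tylosin against control and between −0.065 and 0.086 for amoxicillin against control, so neither sign was stable, and between −0.14 and −0.027 for tylosin against amoxicillin. The count of genes called moved from 0 to 1 for amoxicillin against control in the fit of only the groups compared, with the mean of all probe sets and without amoxicillin replicate 1 and tylosin replicate 2 together, and the gene was Socs3 each time, at −0.58, −0.61 and −0.67. Without those arrays together 2 were called for tylosin against amoxicillin, Socs3 at 0.69 and Cish at 0.57. Leaving out 1 array gave 0 to 1 called genes in each comparison, Socs3 each time, for amoxicillin against control without tylosin replicate 2 or 3, for tylosin against control without tylosin replicate 3, and for tylosin against amoxicillin without tylosin replicate 2.

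Small differences changed sign. For tylosin against control this was so under median centring for Cish (0.039), Stat5b (0.025), Igfbp1 (0.031) and Igf1 at 1419519_at (0.018), under quantile normalization for Igfbp3 (−0.024), and under array weights for Socs2 (−0.0050), Stat5b (0.010) and Igf1 at 1419519_at (0.019). The mean of all probe sets turned Igfbp3 (−0.0093) and Igfbp5 (−0.043) with tylosin, and Socs2 (0.022) for tylosin against amoxicillin. Without amoxicillin replicate 1 and tylosin replicate 2 together, tylosin against control was 0.0031 for Igfbp2, 0.023 for Socs3 and 0.19 for Cish, and tylosin against amoxicillin was 0.31 for Socs2.

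Leaving out 1 array gave these ranges where a sign changed. For tylosin against control they were −0.054 to 0.22 for Ghr, −0.42 to 0.0031 for Igfbp2, −0.060 to 0.19 for Igfbp3, −0.039 to 0.37 for Socs2, −0.54 to 0.023 for Socs3, −0.17 to 0.19 for Cish, −0.12 to 0.074 for Stat5b, −0.17 to 0.12 for Igf1 at 1419519_at, −0.19 to 0.27 for Igfbp1, −0.0086 to 0.48 for Foxo1 and −0.10 to 1.32 for Saa3. For amoxicillin against control they were −0.00080 to 0.36 for Socs2, −0.014 to 0.11 for Igf1 at 1434413_at, −0.11 to 0.33 for Igfbp1, −0.19 to 1.17 for Slco1a1 and −1.63 to 0.017 for Saa2. For tylosin against amoxicillin they were −0.26 to 0.015 for Ghr, −0.033 to 0.44 for Igfbp2, −0.16 to 0.25 for Socs2, −0.10 to 0.016 for Stat5a and −0.012 to 0.31 for Socs3 at 1416576_at. With no change of sign, leaving out 1 array brought amoxicillin against control as near to 0 as 0.011 for Igfbp3, 0.15 for Stat5b, −0.13 for Stat5a and −0.18 for Cish, and tylosin against amoxicillin to −0.17 for Stat5b.

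The replicate numbers were not treated as pairs. Deviations were correlated over 0.1 in 2 of 9 pairs with the same number, and for 3 of 9 arrays the nearest array of another group shared the number. With 3 arrays a group these values cannot exclude a pairing. With the number as a replicate block the called genes of the axis stayed at 0, and the called probe sets were 694 for tylosin against control and 680 for amoxicillin against control, against 638 and 608 without it, and 69 for tylosin against amoxicillin, against 42. The dim filter left 256, 216 and 17 called probe sets in the same order, and 69.6% of all probe sets were under 6 on all arrays. Without tylosin replicate 3 the count for tylosin against control was 1556. Beside calls already given, Prom1 lost its call in 9 alternatives, with values of 0.89 to 1.12 in 7 of them and 0.62 in the 2 without amoxicillin replicate 1, and for tylosin against amoxicillin Slco1a1, Lifr and Cyp7b1 met both thresholds with the block and without amoxicillin replicate 3 (−2.86, −0.92 and −0.79), and Cyp3a44 without tylosin replicate 1 (−1.12) and Sult3a1 without tylosin replicate 2 (−1.47) did so too. Over all arrays left out these 5 genes ranged over −2.86 to −1.33, −0.92 to −0.40, −0.79 to −0.33, −1.12 to −0.41 and −1.47 to −0.51. Socs3 at 1416576_at was called lower with amoxicillin in 6 alternatives (−0.68 to −0.57), and Igf1 at 1419519_at was called lower with tylosin than with amoxicillin without tylosin replicate 2 (−0.50). Abcd2, Bcl6, Socs4, Irs2, Igfbp5, Igf2bp1, Elovl3, Cyp3a16 and, for tylosin against control, Cyp3a44 met both thresholds in 1 or 2 alternatives each. The cause of these shifts was not tested.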
